A study of Mus musculus with 48 samples.

Results

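The flight response of the dentate gyrus (DG) was compared between spaceflight and ground mice that had received saline. The DG area of interest (AOI, the outlined tissue patch from which probes were released) of 3 flight mice given saline (FLT-SAL) was set against that of 3 ground control mice given saline (GC-SAL), for all 15782 genes with a normalised value. These 6 AOIs were taken from 12 DG AOIs and from 48 AOIs in the series, in which 4 brain regions of 12 mice in 4 groups were profiled. The regions were the DG, the cornu ammonis (CA) of the hippocampus, the cortex (CT) and the frontal cortex (FCT). The other 6 mice had received BuOE, a manganese porphyrin antioxidant, in flight (FLT-BuOE) or on the ground (GC-BuOE).

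All mice were C57BL/6 males, 10 weeks old at launch, and FLT-SAL mice were housed for 35 days on the International Space Station. GC-SAL mice lived in matching habitats on the ground under a protocol that began 3 days later. Saline was injected subcutaneously in both groups. Flight brains were collected after the return to Earth, the mice having reached the laboratory within 20 h of splashdown, so the landing and the hours after it are part of the flight condition. Each value came from 1 section of 6 μm through a fixed, paraffin-embedded left hemibrain, and each mouse contributed 1 DG AOI. AOIs had been placed by GFAP, Iba1 and nuclear (Syto83) staining. The 3 FLT-SAL hemibrains were on 1 slide and the 3 GC-SAL hemibrains on another, so slide and flight cannot be told apart.

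The DG is the entry station of the hippocampal circuit. Its densely packed granule cells receive cortical input on their dendrites and send mossy fibre axons to CA3, where large terminals release glutamate under strong calcium control. Calmodulin and its partners carry calcium signals inside these cells, and new granule cells continue to be born at the inner edge of the layer in adult rodents. An AOI holds many cells, so more cells of a type cannot be told apart from more RNA per cell.

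Depth and signal differed between the slides. FLT-SAL AOIs held 965868 to 1372780 deduplicated counts, and GC-SAL AOIs held 496732 to 767199. Nuclei counted per AOI were 545 to 640 in FLT-SAL and 477 to 528 in GC-SAL, and neither measure overlapped between groups. The ratio of the upper quartile (Q3) of gene values to the negative-probe value was 4.18, 3.26 and 3.51 in FLT-SAL mice 1 to 3 and 3.64, 3.71 and 2.97 in GC-SAL mice 1 to 3, and these ranges overlapped. A gene was marked near background where its mean stayed under 1.5 times the negative-probe value in both groups, which held for 60 genes, none of which was called. Olfactory and vomeronasal receptor genes, which are characteristic of sensory neurons outside the brain, had a median value of 24.02 in GC-SAL and a 95th percentile of 39.14. Of all genes, 25.1% lay above that percentile.

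Some cell type markers were set beside the tissue label. Prox1, the transcription factor that sets granule cell identity, and C1ql2, a complement-related protein of mossy fibre synapses, stood at 8.94 and 6.69 times the negative-probe value in GC-SAL. Wfs1 and Fibcd1, which mark CA1 pyramidal cells, stood at 2.89 and 2.95 times it. The astrocyte marker Slc1a2 stood at 12.92 and the mossy and CA3 cell marker Bok at 4.24 times it. These ratios compare different probes within DG AOIs and do not by themselves establish the label.

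Of the 15782 genes, 42 were differentially expressed genes (DEGs), 0.266% of those tested. A DEG had an adjusted p below 0.05 in limma with Benjamini-Hochberg adjustment and a change of at least 1.5-fold on the log2(value + 1) scale. There were 39 DEGs higher in FLT-SAL, 0.247% of genes, and 3 lower, 0.019%. All 42 had groups that did not overlap, as did 14.8% of all genes (7.39% higher and 7.45% lower). Unadjusted p was below 0.05 for 7.41% of genes, 4.43% higher and 2.98% lower. Two-sided exact permutation of 3 mice against 3 cannot give a p below 0.1, so every call rests on the spread that limma shares across genes and AOIs. Where that spread was shared without a mean-variance trend, limma called 0 genes, with 967 at an unadjusted p below 0.05. The edgeR quasi-likelihood test called 71 genes (0.45% of 15779), of which 53 were higher (0.336%) and 18 lower (0.114%), and DESeq2 called 42.

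Single mice moved the count. It was 17, 28 and 14 when FLT-SAL mouse 1, 2 and 3 was left out in turn, and 20, 53 and 21 for the GC-SAL mice in that order. Syt7, Syp, Itm2c, Atp6v0c, Adcy1, Ncdn and Rbm3 were called in each of the 6 fits that left 1 mouse out. Epha7, Mt1, Hpca and Prrt2 were called in 5 of 6, while Phyhip, Arhgap21, Ccdc85a and Shkbp1 were called in 0 of 6. Most changes were moderate. The median of the DEGs higher in FLT-SAL was 0.71 on the log2 scale, only Crygc and Psrc1 passed 2-fold, and 40 DEGs lay below it.

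**Figure D1:**
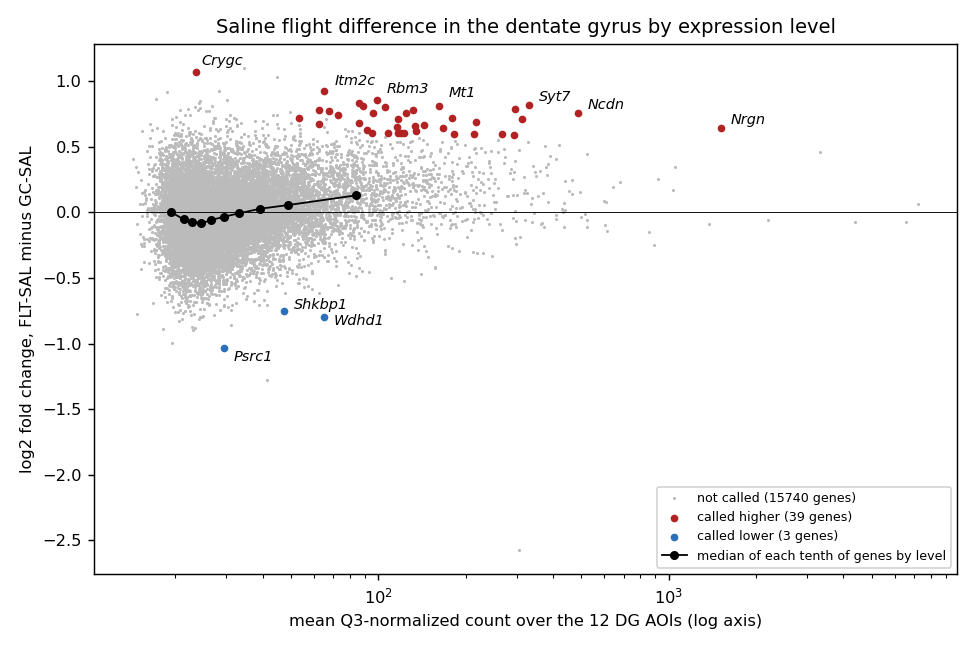
Difference between FLT-SAL and GC-SAL in DG (vertical axis, log2 of value + 1) against the mean normalised value over the 12 DG AOIs of each of 15782 genes (horizontal axis, log scale), with DEGs coloured and the line joining the median of each decile of genes by mean value. Of the 39 DEGs higher in FLT-SAL, 37 lie in the highest decile, where the line reaches 0.13.

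Higher expressed genes leaned towards FLT-SAL as a class. In the highest decile of mean value (59.16 to 7238.65) the median log2 difference was 0.13 and 71.8% of genes were positive, against a median of -0.01 and 48.7% over all genes. The 4th decile had a median of -0.08. The highest decile held 37 of the 39 DEGs higher in FLT-SAL. Medians of the gene groups below are therefore to be read beside 0.13 and -0.01. Those of the glutamate receptor (0.14), oxidative phosphorylation (0.14), actin and tubulin (0.13) and cyclic AMP (0.11) lists lay close to 0.13. Depth, nuclei per AOI and slide moved with the groups, and their part in the shift of the highest decile was not tested.

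Of the function and family lists, that of synaptic vesicle release had the most genes higher in flight at an unadjusted p below 0.05. This holds by number and not by share, with 23 of 60 genes here and 9 of 23 for glycolysis and lactate. Of 60 measured genes for synaptic vesicles and exocytosis, 5 rose (Syp, Syt7, Prrt2, Napa and Atp6v0c) and 0 fell in limma. The unadjusted p was below 0.05 for 23 higher and 2 lower genes, against 4.43% and 2.98% of all genes. The median log2 difference of the list was 0.27, and 80.0% of its genes were positive, against 0.13 and 71.8% in the highest decile of mean value. The summed value of the list was 6287 to 6651 in FLT-SAL and 4956 to 5447 in GC-SAL. With 1 mouse left out, 3 to 5 of the list were called.

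Syt7, a high-affinity calcium sensor of vesicle fusion (chr19:10389090-10453180, + strand, protein coding), had normalised values of 424, 426 and 447 in FLT-SAL mice 1 to 3 and 221, 247 and 269 in GC-SAL mice 1 to 3. The 2 groups were far apart relative to the spread within each. The log2 difference was 0.82 ± 0.12 (SE; 95% interval 0.57 to 1.06), with an adjusted p of 0.00021 in limma, the smallest of all genes. Syp, the vesicle membrane protein synaptophysin (chrX:7638471-7653256, + strand), read 257, 282 and 272 in FLT-SAL and 171, 171 and 159 in GC-SAL. Its log2 difference was 0.69 ± 0.13 (adjusted p = 0.00323), and the groups did not overlap. Atp6v0c, the membrane ring subunit of the proton pump that acidifies vesicles and lysosomes (chr17:24163866-24169702, - strand), read 145, 166 and 159 against 84.2, 113 and 83.0, a log2 difference of 0.75 ± 0.14 (adjusted p = 0.00236).

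Prrt2, a presynaptic protein that binds the release machinery, read 231, 240.1 and 224 in FLT-SAL and 126, 181 and 121 in GC-SAL. GC-SAL mouse 2 stood closest to the flight mice without reaching them, and the log2 difference was 0.72 ± 0.13 (adjusted p = 0.00253). Napa encodes alpha-SNAP, the adaptor with which spent SNARE complexes are taken apart. It read 83.8, 81.1 and 72.2 against 40.02, 54.9 and 54.0, with a log2 difference of 0.67 ± 0.16 and an adjusted p of 0.0494, next to the threshold. Rimbp2, which ties calcium channels to the active zone, was on no list and rose from 77.3, 103 and 64.0 to 154, 129 and 138 (log2 difference 0.80 ± 0.15, adjusted p = 0.00263).

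Other core release genes did not pass the test. Log2 differences were 0.48 for Cplx2 (complexin 2; adjusted p = 0.0995), 0.39 for Snap25 (adjusted p = 0.303) and 0.35 for Vamp2 (adjusted p = 0.295), the last 2 being SNARE proteins. Dnm1, the GTPase of vesicle retrieval, had 0.64 with an adjusted p of 0.0666 and was called by edgeR.

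The values by mouse show these groups apart for the leading DEGs.

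**Figure D2:**
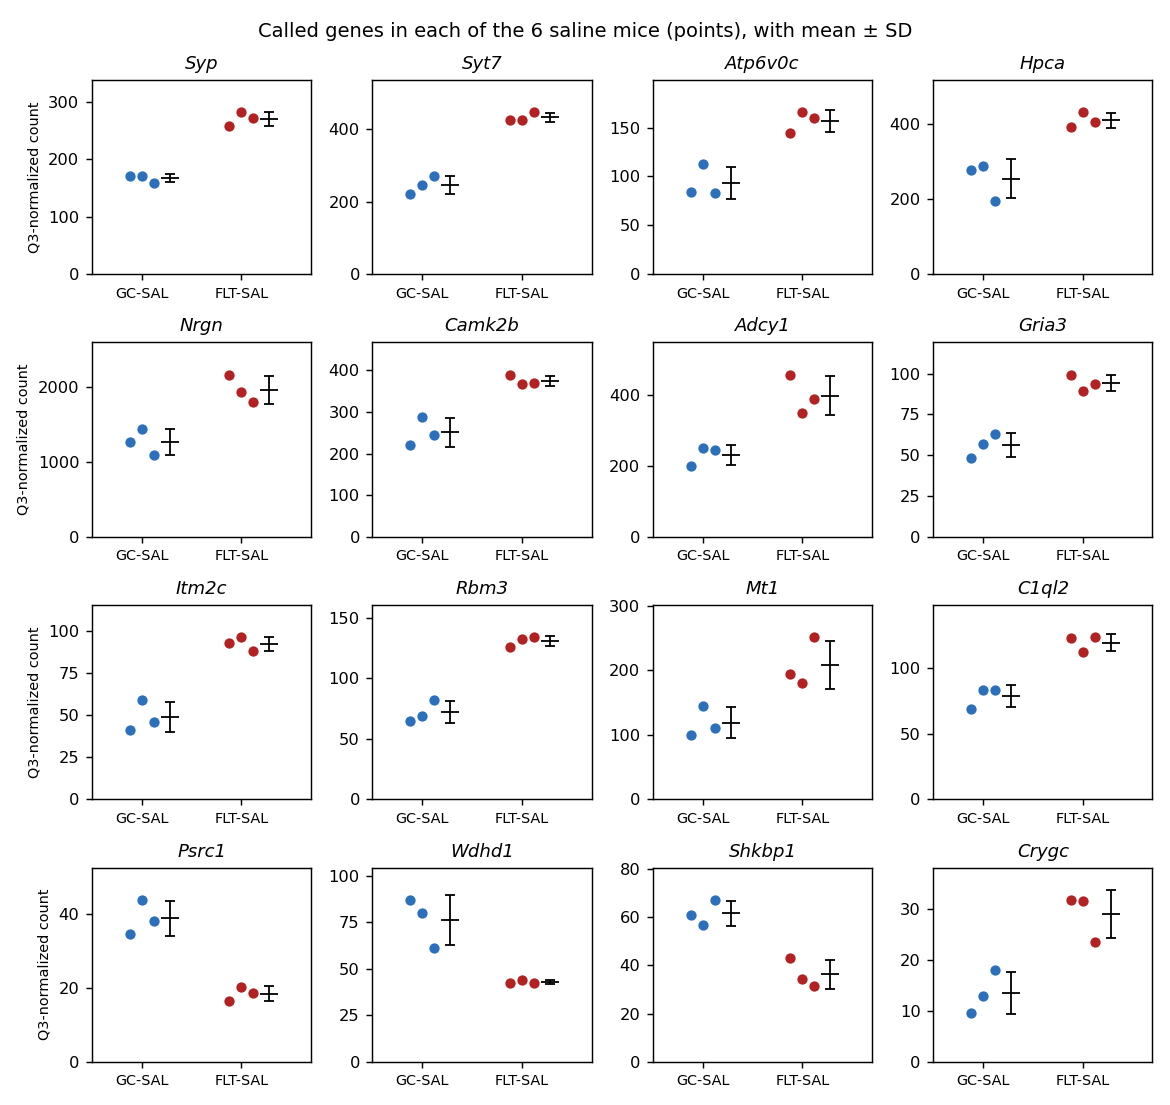
Normalised values (vertical axes, Q3-normalised, linear from 0) in the DG AOI of each mouse for selected DEGs, with 3 FLT-SAL and 3 GC-SAL mice as points and the group mean ± SD beside them. FLT-SAL and GC-SAL points do not overlap in any panel, as for all 42 DEGs by count.

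Calmodulin and calcium sensor genes contributed the largest number of DEGs of any list. Members and lists were chosen with earlier results of these data known, so this rank is a description. Of 43 measured genes, 7 rose (Calm3, Camk2b, Ppp3ca, Ppp3r1, Nrgn, Hpca and Ncald) and 0 fell in limma, against 0.247% and 0.019% of all genes. At an unadjusted p below 0.05, 12 were higher and 1 lower, against 4.43% and 2.98% of all genes. Counts of the lists below are to be read beside these shares too. The median log2 difference was 0.20, with 74.4% of genes positive, against 0.13 and 71.8% in the highest decile of mean value. The summed value ranged from 7559 to 7812 in FLT-SAL and from 5616 to 6363 in GC-SAL. These calls depended on single mice more than those of the vesicle genes. The list held 0 calls once the third GC-SAL mouse was left out and 6 once the second was, and 2 when any of the other 4 mice was left out.

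Nrgn, the postsynaptic calmodulin-binding protein neurogranin (chr9:37544492-37552904, - strand), was the most abundant of them. It read 2167, 1935 and 1795 in FLT-SAL and 1269.7, 1439 and 1089.6 in GC-SAL. Every flight mouse lay above every ground mouse, and the log2 difference was 0.64 ± 0.11 (95% interval 0.43 to 0.85, adjusted p = 0.000477). Hpca, the hippocampal calcium sensor hippocalcin, read 392, 432 and 406 against 279, 289 and 194, a log2 difference of 0.71 ± 0.13 (adjusted p = 0.00124). GC-SAL mouse 3 was the lowest of the ground mice for both genes.

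Calm3, which encodes calmodulin itself, read 159, 205 and 185 in FLT-SAL and 99.4, 120.1 and 125 in GC-SAL (log2 difference 0.67 ± 0.16, adjusted p = 0.0351). Calm2, another calmodulin gene, had 0.43 with an adjusted p of 0.112, below the 1.5-fold limit of 0.585. Both subunits of calcineurin, the calmodulin-dependent phosphatase, rose. The catalytic subunit Ppp3ca read 233, 229.7 and 213 against 127, 172 and 149 (log2 difference 0.60, adjusted p = 0.0191), and the regulatory subunit Ppp3r1 read 138, 159 and 152 against 98.0, 115 and 82.0 (log2 difference 0.61, adjusted p = 0.0308).

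Camk2b, the beta subunit of calmodulin-dependent kinase II, read 389.9, 366 and 369 against 219, 289 and 244 (log2 difference 0.59 ± 0.13, adjusted p = 0.0175). It sat at the fold limit and was the DEG that edgeR did not call. Its partner subunit Camk2a had a log2 difference of 0.19 (95% interval -0.03 to 0.40). Ncald, a visinin-like calcium sensor, read 149, 142 and 133 against 86.9, 91.2 and 91.1 (log2 difference 0.65 ± 0.14, adjusted p = 0.0184).

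Of 42 genes for calcium channels, pumps and stores, only Orai2, a store-operated calcium channel, rose, and 0 fell in limma. It read 114, 99.8 and 123 in FLT-SAL and 60.7, 76.3 and 72.0 in GC-SAL (log2 difference 0.68 ± 0.15, adjusted p = 0.025). The list had a median of 0.08, with 8 genes higher and 1 lower at an unadjusted p below 0.05. Slc8a2, a sodium-calcium exchanger of the plasma membrane, had a log2 difference of 0.53 with an adjusted p of 0.0534. Atp2b4, a calcium pump, had -0.73 (adjusted p = 0.284).

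Among 41 genes for cyclic AMP, protein kinase A and phosphatases, Adcy1 and Ppp1r1a rose and 0 fell in limma. Adcy1 (chr11:7063489-7178506, + strand) is the adenylyl cyclase that calcium and calmodulin switch on. It read 457, 349.8 and 387 in FLT-SAL and 199, 249 and 244 in GC-SAL, and the lowest flight value was above the highest ground value by more than the ground range. The log2 difference was 0.78 ± 0.12 (95% interval 0.54 to 1.03, adjusted p = 0.000257). Ppp1r1a, an inhibitor of protein phosphatase 1 that protein kinase A activates, read 124, 128 and 157 against 80.0, 102 and 86.0 (log2 difference 0.60 ± 0.14, adjusted p = 0.0351). The list had a median of 0.11. At an unadjusted p below 0.05, 8 of its genes were higher and 1 lower, against 4.43% and 2.98% of all genes. Protein kinase C and phosphoinositide genes, 31 in number, held 0 DEGs in limma, with 2 higher and 0 lower at an unadjusted p below 0.05 and a median of 0.06.

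Receptor genes were taken next. Of 51 glutamate receptor and postsynaptic scaffold genes, only Gria3 rose and 0 fell in limma. At an unadjusted p below 0.05, 14 were higher and 0 lower, against 4.43% and 2.98% of all genes. The median of the list was 0.14. Gria3, an AMPA receptor subunit, read 99.3, 89.4 and 93.6 in FLT-SAL and 48.3, 56.8 and 63.0 in GC-SAL, a log2 difference of 0.74 ± 0.16 (adjusted p = 0.0117). Its family member Gria2 had 0.33, the NMDA receptor subunits Grin1 and Grin2a had 0.42 and 0.12, and the scaffold Dlg4 had 0.25. Of 17 GABA and glycine receptor genes limma called 0, with 5 higher and 0 lower at an unadjusted p below 0.05. Potassium channel genes, 81 in number, also held 0 DEGs, with 12 higher and 6 lower at an unadjusted p below 0.05, a median of 0.06 and 1 call by edgeR (Kcnk1).

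Synapse adhesion and guidance genes were on no fixed list except as granule cell markers. C1ql2 read 123, 112 and 124 in FLT-SAL and 69.0, 83.8 and 83.0 in GC-SAL (log2 difference 0.60 ± 0.14, adjusted p = 0.0382). Lrrtm4, a postsynaptic adhesion protein, read 71.2, 54.6 and 67.2 against 37.3, 38.2 and 40.02 (log2 difference 0.72 ± 0.17, adjusted p = 0.0385). Its ground mean was below the 95th percentile of the olfactory and vomeronasal receptor genes, at 3.27 times the negative-probe value. Epha7, a receptor for ephrin guidance cues, read 180.1, 164 and 176 against 102, 116 and 85.0 (log2 difference 0.78 ± 0.14, adjusted p = 0.00229), with no overlap.

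The cell type markers moved in part with these genes. The 14 granule cell markers summed to 945 to 1074 in FLT-SAL and 749 to 855 in GC-SAL, which did not overlap. Their median log2 difference was 0.30, with 5 higher and 0 lower at an unadjusted p below 0.05 and C1ql2 the only DEG. Prox1, their defining gene, read 113, 111 and 132 in FLT-SAL and 99.4, 112 and 104 in GC-SAL, with a log2 difference of 0.17 (95% interval -0.12 to 0.47), and the groups overlapped. Of the 14 markers, 12 had a positive and 2 a negative difference, and 0 were marked near background.

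The 14 astrocyte markers summed to 868 to 979 in FLT-SAL and 720 to 839 in GC-SAL, also without overlap, at a median of 0.19. The 11 oligodendrocyte and myelin markers summed to 566 to 600 and 603 to 639, lower in FLT-SAL without overlap, at a median of -0.07. No marker of astrocytes or myelin was a DEG in limma. At an unadjusted p below 0.05, 3 astrocyte markers were higher and 1 lower, and 0 myelin markers were higher and 2 lower. Mbp, a main myelin protein, had a log2 difference of 0.26. The part of cell makeup in the differences of neuronal genes was not tested.

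Medians were 0.06 for 12 GABAergic interneuron markers, -0.04 for 10 microglia markers, 0.00 for 8 progenitor and immature neuron markers, -0.13 for 10 CA1 markers, -0.11 for 9 mossy and CA3 cell markers and -0.16 for 10 vessel markers. Limma called 0 genes in each of these lists. At an unadjusted p below 0.05, 2 interneuron markers were higher and 1 CA1 marker was lower, and 0 of the others passed. The mossy and CA3 cell markers summed to 247 to 260 in FLT-SAL and 264 to 281 in GC-SAL, lower in FLT-SAL without overlap. Sums of the other lists in this paragraph overlapped between groups. Sst, the peptide somatostatin of hilar interneurons, was the interneuron marker with the largest difference. It read 43.0, 62.4 and 35.7 in FLT-SAL and 23.5, 21.4 and 18.0 in GC-SAL. The groups did not overlap, and the log2 difference was 1.10 (95% interval 0.55 to 1.65) with an adjusted p of 0.0565. Sst was called by edgeR.

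**Figure D3:**
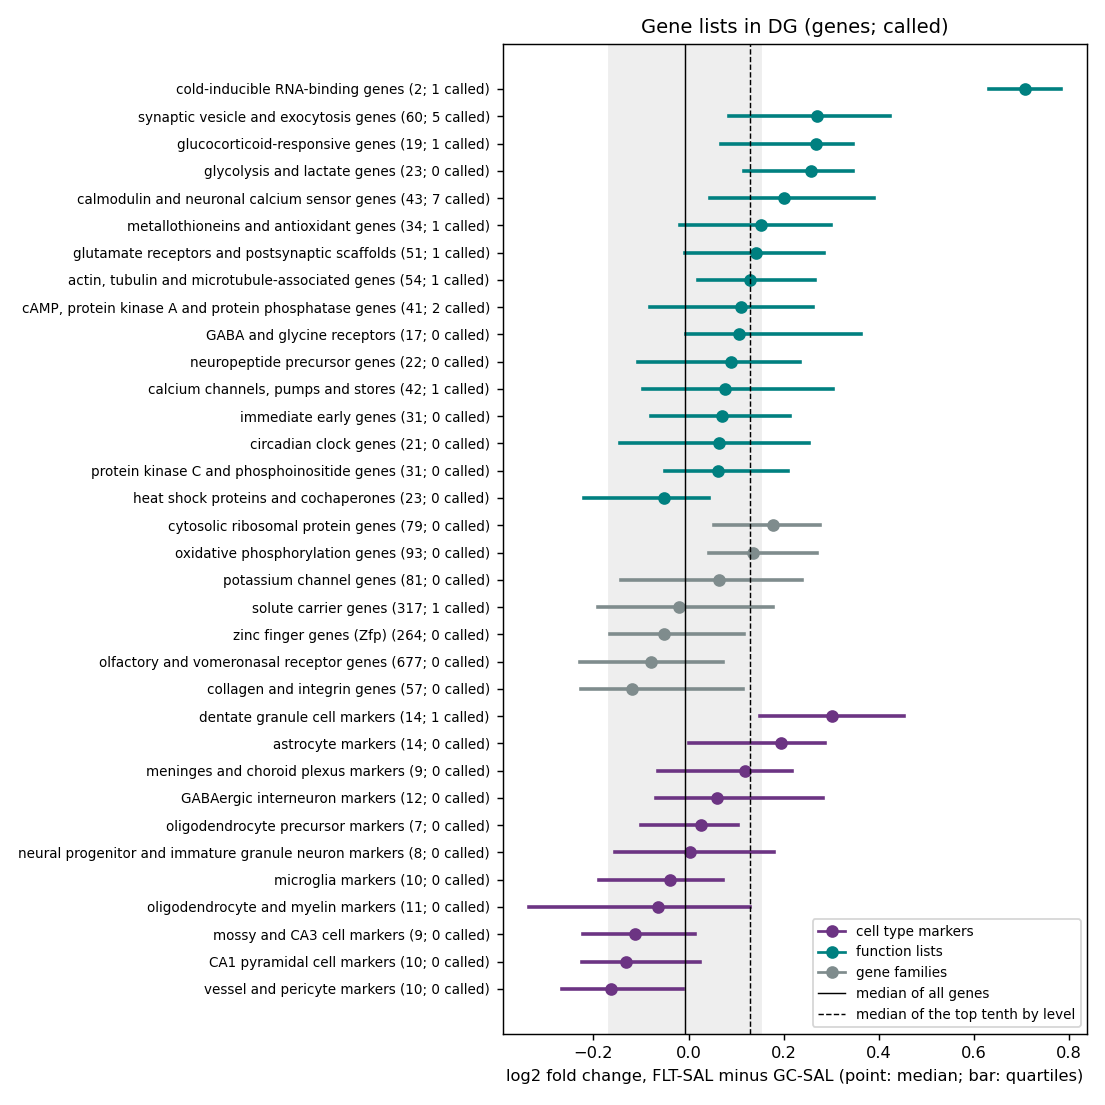
Log2 difference between FLT-SAL and GC-SAL in DG (horizontal axis) for the cell type, function and family lists (vertical axis), with the median of each list as a point, its quartiles as a bar, and the medians of all genes and of the highest decile as lines. Synaptic vesicle genes have a median of 0.27 and calmodulin and calcium sensor genes 0.20, against -0.01 for all genes and 0.13 for the highest decile of mean value.

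Ion gradient and energy genes were next. Atp1b1, the beta subunit of the sodium pump, had a log2 difference of 0.54 with an adjusted p of 0.0461 in limma, below the fold limit. Slc25a4, the mitochondrial carrier that exchanges ADP for ATP, read 134, 159 and 151 against 92.5, 101 and 97.1 (log2 difference 0.60 ± 0.14, adjusted p = 0.0232). It was the only DEG among 317 solute carrier genes, whose median was -0.02. Ckb, the brain creatine kinase that buffers ATP, read 148, 172 and 187 against 99.4, 119 and 101 (log2 difference 0.66 ± 0.13, adjusted p = 0.00786).

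Limma called 0 of 23 glycolysis and lactate genes. At an unadjusted p below 0.05, 9 of them were higher and 0 lower, and the median was 0.26. The glycolytic enzyme Aldoa came nearest, with 217, 239.6 and 213 in FLT-SAL and 153, 166 and 148 in GC-SAL (log2 difference 0.52, adjusted p = 0.0534), and Pkm, the pyruvate kinase, had 0.49 (adjusted p = 0.112). Of 93 oxidative phosphorylation genes limma called 0, with 12 higher and 1 lower at an unadjusted p below 0.05 and a median of 0.14. Atp5b, the catalytic subunit of ATP synthase, passed the adjusted p (0.0425) at 0.54, below the fold limit. Of 79 cytosolic ribosomal protein genes limma also called 0, with 21 higher and 0 lower at an unadjusted p below 0.05 and a median of 0.18. Of all genes, 4.43% were higher and 2.98% lower at that unadjusted p.

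RNA-binding genes included both members of the cold-inducible family. Rbm3, a cold-inducible RNA-binding protein (chrX:8138975-8145880, - strand), read 126, 132 and 134 in FLT-SAL and 64.9, 68.9 and 82.0 in GC-SAL. The flight mice were tightly grouped and far above the ground mice, and the log2 difference was 0.86 ± 0.14 (95% interval 0.57 to 1.14, adjusted p = 0.000507). Cirbp, the other member, read 59.3, 53.0 and 75.04 against 41.4, 43.7 and 40.02. Its groups did not overlap either, but the log2 difference of 0.56 had an adjusted p of 0.245.

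Rsrp1, an arginine- and serine-rich nuclear protein, read 117, 107 and 121 in FLT-SAL and 56.6, 67.0 and 72.0 in GC-SAL (log2 difference 0.81 ± 0.15, adjusted p = 0.0031). Ddx17, an RNA helicase, read 205, 190.2 and 189 against 113, 127 and 135 (log2 difference 0.64 ± 0.13, adjusted p = 0.00502). Rbfox1, a neuronal splicing factor, read 348, 304 and 327 against 237, 237 and 176 (log2 difference 0.60 ± 0.13, adjusted p = 0.0117). None of these groups overlapped.

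Mt1, the metal-binding stress protein metallothionein 1 (chr8:94179082-94180327, + strand), was the only DEG among 34 metallothionein and antioxidant genes and among 19 glucocorticoid-responsive genes, both of which list it. It read 193, 180.4 and 251 in FLT-SAL and 99.4, 145 and 111 in GC-SAL. FLT-SAL mouse 3 was highest, and the log2 difference was 0.81 ± 0.14 (95% interval 0.53 to 1.09, adjusted p = 0.00114). Its neighbour Mt2 had 0.35 (adjusted p = 0.755), and Sod1, the cytosolic superoxide dismutase, had 0.43 (adjusted p = 0.299). The antioxidant list had a median of 0.15, with 4 genes higher and 0 lower at an unadjusted p below 0.05.

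The glucocorticoid list had a median of 0.27, with 4 genes higher and 0 lower at an unadjusted p below 0.05. Klf9, a transcription factor induced by corticosteroids, read 106, 101 and 104 in FLT-SAL and 49.7, 80.0 and 79.0 in GC-SAL (log2 difference 0.60, adjusted p = 0.0892).

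Promoter windows of 300 bases (250 before to 50 after an annotated start, RefSeq, GRCm38.p6) were matched for 33 of the 42 DEGs, giving 46 windows, and 15604 windows were matched for 12484 measured genes. They were searched on both strands. Metal response cores of the form TGCACNC were in 12.6% of all windows and 19.6% of DEG windows, and those of the form TGCGCNC in 23.0% and 30.4%. Of all windows 2.8% held 3 or more cores of either form. Among DEG windows, 1 of Camk2b held 7, 1 of Hpca held 4, and 1 each of Mt1, Shkbp1 and Wipf3 held 3. The Mt1 window is shown because its product binds metals, with the cores in capitals (chr8:94178839-94179138, + strand).
Mt1 promoter: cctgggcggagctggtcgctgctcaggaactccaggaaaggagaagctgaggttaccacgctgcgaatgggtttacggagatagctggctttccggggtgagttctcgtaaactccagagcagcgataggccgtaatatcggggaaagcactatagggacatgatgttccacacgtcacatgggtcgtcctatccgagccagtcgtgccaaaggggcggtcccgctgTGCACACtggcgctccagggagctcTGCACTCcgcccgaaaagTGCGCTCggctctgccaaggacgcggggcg
The cyclic AMP response element TGACGTCA was in 2.56% of all windows and in 2.17% of the DEG windows, which was 1 window, that of Napa. It is shown because cyclic AMP signalling genes were among the DEGs, with that element and 3 copies of the E-box CACGTG in capitals (chr7:16098330-16098629, + strand).
Napa promoter: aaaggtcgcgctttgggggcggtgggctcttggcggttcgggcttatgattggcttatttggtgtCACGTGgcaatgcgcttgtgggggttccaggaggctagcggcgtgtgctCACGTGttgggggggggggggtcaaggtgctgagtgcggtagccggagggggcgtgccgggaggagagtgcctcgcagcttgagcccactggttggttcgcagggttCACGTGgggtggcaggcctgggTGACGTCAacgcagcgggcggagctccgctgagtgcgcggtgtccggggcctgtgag
The E-box was in 8.79% of all windows and 10.9% of DEG windows (Adcy1, Hpca, Mfsd4a, Napa and Orai2). The EGR motif GCGNGGGCG was in 8.92% and 8.7% (Adcy1, Camk2b, Hpca and Ncdn), and the AP-1 motif TGANTCA in 6.09% and 2.17%. These are letter matches in fixed windows and say nothing of binding.

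Immediate early genes, clock genes and chaperones held 0 DEGs in limma. Of 31 immediate early genes, 2 were higher and 1 lower at an unadjusted p below 0.05, with a median of 0.07. Arc, a plasticity gene that neuronal activity induces, had a log2 difference of -0.47 (95% interval -0.83 to -0.10, adjusted p = 0.455), and Junb, an AP-1 factor, had 0.56 (adjusted p = 0.231). Of 21 clock genes, 4 were higher and 0 lower by the same measure, with a median of 0.06 and 0.58 for Nr1d1, a repressor within the clock (adjusted p = 0.235). Of 23 heat shock proteins and cochaperones, 0 were higher and 2 lower by it, with a median of -0.05. edgeR also called 0 genes in these 3 lists. Groups did not overlap for 6 heat shock and cochaperone genes with FLT-SAL lower and for 0 with it higher, against 7.45% and 7.39% of all genes. The counts were 2 lower and 5 higher among immediate early genes and 3 lower and 6 higher among clock genes. Among the heat shock genes was Hsp90b1, the chaperone of the endoplasmic reticulum, at 68.9, 64.5 and 47.2 against 86.9, 103 and 75.04 (log2 difference -0.55, adjusted p = 0.231).

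Membrane, cytoskeletal and signalling genes made up most of the remaining DEGs higher in FLT-SAL. Itm2c, a membrane protein of the BRICHOS family (chr1:85894281-85908675, + strand), read 92.6, 96.2 and 87.9 in FLT-SAL and 41.4, 58.6 and 46.0 in GC-SAL (log2 difference 0.92 ± 0.17, adjusted p = 0.00229). Ncdn, the neuronal cytoplasmic protein neurochondrin (chr4:126743750-126753438, - strand), read 670.0, 611 and 680.4 against 345, 435 and 383 (log2 difference 0.76 ± 0.12, adjusted p = 0.000309). Neither gene's groups overlapped, and both were called in each of the 6 fits without 1 mouse.

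Gng2, a G protein gamma subunit, read 74.1, 66.5 and 81.5 in FLT-SAL and 41.4, 38.2 and 49.0 in GC-SAL (log2 difference 0.78 ± 0.17, adjusted p = 0.0184). Pld3, a lysosomal protein of the phospholipase D family, read 117, 120.1 and 131 against 78.7, 61.4 and 77.0 (log2 difference 0.76 ± 0.15, adjusted p = 0.00366). Mfsd4a, a transporter of the major facilitator superfamily, read 109, 71.7 and 85.0 against 49.7, 64.2 and 41.0 (log2 difference 0.77 ± 0.18, adjusted p = 0.0351), with the groups separated by less than the range of either.

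Wipf3, which binds the actin regulator N-WASP, was the only DEG among 54 actin, tubulin and microtubule-associated genes, whose median was 0.13. It read 156, 138 and 179 in FLT-SAL and 81.4, 124 and 85.0 in GC-SAL (log2 difference 0.71 ± 0.17, adjusted p = 0.0382). The others of this kind were Rtn1, a shaping protein of the endoplasmic reticulum (log2 difference 0.60, adjusted p = 0.0117), Phyhip (0.60, adjusted p = 0.0466), Arhgap21, an activator of small GTPases (0.63, adjusted p = 0.0466), and Ccdc85a (0.62, adjusted p = 0.025). None of their groups overlapped. Actb, the cytoskeletal actin, and Ppia, a prolyl isomerase, passed the adjusted p (0.0351 and 0.0222) at 0.55 and 0.51, below the fold limit, as did Kalrn, a synaptic guanine nucleotide exchange factor, at 0.51 (adjusted p = 0.0385).

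Crygc, a lens crystallin (chr1:65071525-65073689, - strand), had the largest difference among the DEGs but a low level. It read 31.9, 31.7 and 23.6 in FLT-SAL and 9.66, 13.0 and 18.0 in GC-SAL. The ground mean was 1.15 times the negative-probe value and the flight mean 2.62 times it, so the ground level could not be told from background. The log2 difference was 1.07 ± 0.26 (95% interval 0.55 to 1.60, adjusted p = 0.0466), and it was called in 1 of 6 fits without 1 mouse. Lens crystallins are not known as dentate gyrus genes.

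The genes that fell were few. Psrc1, a spindle-associated microtubule protein (chr3:108383839-108388231, + strand), read 16.3, 20.3 and 18.6 in FLT-SAL and 34.5, 43.7 and 38.0 in GC-SAL. Flight values were at 1.66 and ground values at 3.30 times the negative-probe value, and the groups were well separated (log2 difference -1.03 ± 0.22, adjusted p = 0.0117). The Psrc1 ground mean of 38.8 lay just below the 95th percentile of the olfactory and vomeronasal receptor genes (39.14), so its level was low. Wdhd1, a DNA replication factor (chr14:47240944-47276857, - strand), read 42.2, 44.2 and 42.2 against 86.9, 80.0 and 61.0 (log2 difference -0.80 ± 0.17, adjusted p = 0.0117). Shkbp1, which binds an adaptor of receptor endocytosis (chr7:27342133-27356019, - strand), read 43.0, 34.3 and 31.4 against 60.7, 56.8 and 67.0 (log2 difference -0.76 ± 0.18, adjusted p = 0.0385). None of the 3 had overlapping groups, and Psrc1 and Wdhd1 were each called in 2 of 6 fits without 1 mouse.

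The 5 genes with the largest uncalled differences and no overlap were Sst, described above, Abtb2, Kcna4, Defb4 and Il31ra. Abtb2, an ankyrin repeat and BTB domain protein, read 13.3, 15.1 and 10.01 in FLT-SAL and 22.1, 27.0 and 30.02 in GC-SAL (log2 difference -0.99, 95% interval -1.61 to -0.37, adjusted p = 0.229). Kcna4, a voltage-gated potassium channel, read 34.1, 32.2 and 38.6 against 8.28, 26.1 and 26.0 (log2 difference 0.92, adjusted p = 0.139), and GC-SAL mouse 1 lay far below the other ground mice. Defb4, a defensin, had 0.91 (adjusted p = 0.26) at a ground level of 1.07 times the negative-probe value, and Il31ra, a cytokine receptor, had -0.89 (adjusted p = 0.36). The ground means of all 5, including Sst at 1.78 times the negative-probe value, lay below the 95th percentile of the olfactory and vomeronasal receptor genes.

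Of the other gene families measured, 3 had negative medians and 0 DEGs in limma. Collagen and integrin genes, 57 in number, had a median of -0.12, with 2 higher and 3 lower at an unadjusted p below 0.05. The medians were -0.05 for 264 Zfp zinc finger genes and -0.08 for 677 olfactory and vomeronasal receptor genes. At an unadjusted p below 0.05, 5 zinc finger genes were higher and 8 lower. Of the receptors, 7 were higher and 34 lower at an unadjusted p below 0.05. The shares of all genes were 4.43% higher and 2.98% lower. In these 3 families edgeR called 2 genes, both receptors and both lower.

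The flight difference was then set beside that of the BuOE mice, which asks whether the same genes moved in flight in mice given the antioxidant. These were other mice on other slides. Limma called 17 genes between FLT-BuOE and GC-BuOE in DG, 0.108% of genes, of which 7 were higher (0.0444%) and 10 lower (0.0634%) in flight. Of the 39 genes that rose in saline mice, 33 had a positive difference in BuOE mice, where 49% of all genes and 56% of the highest decile were positive. Their median was 0.19, against -0.01 for all genes and 0.03 for the highest decile. Of the 3 that fell, Psrc1 (-0.53) and Shkbp1 (-0.66) were negative and Wdhd1 was at 0.03.

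Among the DEGs, Rbm3 had the smallest adjusted p in the BuOE mice. In BuOE mice it read 111.7, 133.8 and 113.4 in flight and 77.8, 73.8 and 70.0 on the ground, a log2 difference of 0.68 (adjusted p = 0.0195) without overlap. Its saline difference exceeded that by 0.17 (95% interval -0.23 to 0.58). Ddx17 had 0.55 in BuOE mice (adjusted p = 0.045) and Mt1 0.54 (adjusted p = 0.135). Cirbp had a difference of 1.07 in BuOE mice with an adjusted p of 0.00154 in limma, and the saline value was lower than this by 0.51 (adjusted p = 0.777).

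Adcy1, Nrgn, Wipf3, Napa, Crygc and Calm3 rose in saline mice and had a negative value in BuOE mice. Adcy1 read 245.1, 267.7 and 304.6 in FLT-BuOE and 254.6, 298.9 and 294.6 in GC-BuOE, overlapping groups with a log2 difference of -0.06. Nrgn had -0.02, Wipf3 -0.37, Calm3 -0.14, Napa -0.05 and Crygc -0.18.

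The test of the difference itself, the saline flight difference minus that with BuOE, passed the adjusted p for 0 genes in limma, with 1009 (6.39%) at an unadjusted p below 0.05. The smallest adjusted p was 0.079, shared by Klf9 (1.10) and Adcy1 (0.84, 95% interval 0.49 to 1.18). Mmp17, a membrane-bound matrix metalloproteinase that was no DEG, had 0.98 (adjusted p = 0.0811), Wipf3 1.09 (adjusted p = 0.117) and Nrgn 0.65 (adjusted p = 0.159). All 39 genes that rose in saline mice had a positive difference between treatments, but they were chosen on its saline term, so this is a description. Counts of this test were 5 without GC-SAL mouse 2 (Wipf3, Klf9, Mmp17, Adcy1 and Nrgn) and 1 without GC-SAL mouse 1 (Khnyn). The edgeR test, added after the data were seen, called 7 genes, among them Adcy1 and Klf9.

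**Figure D4:**
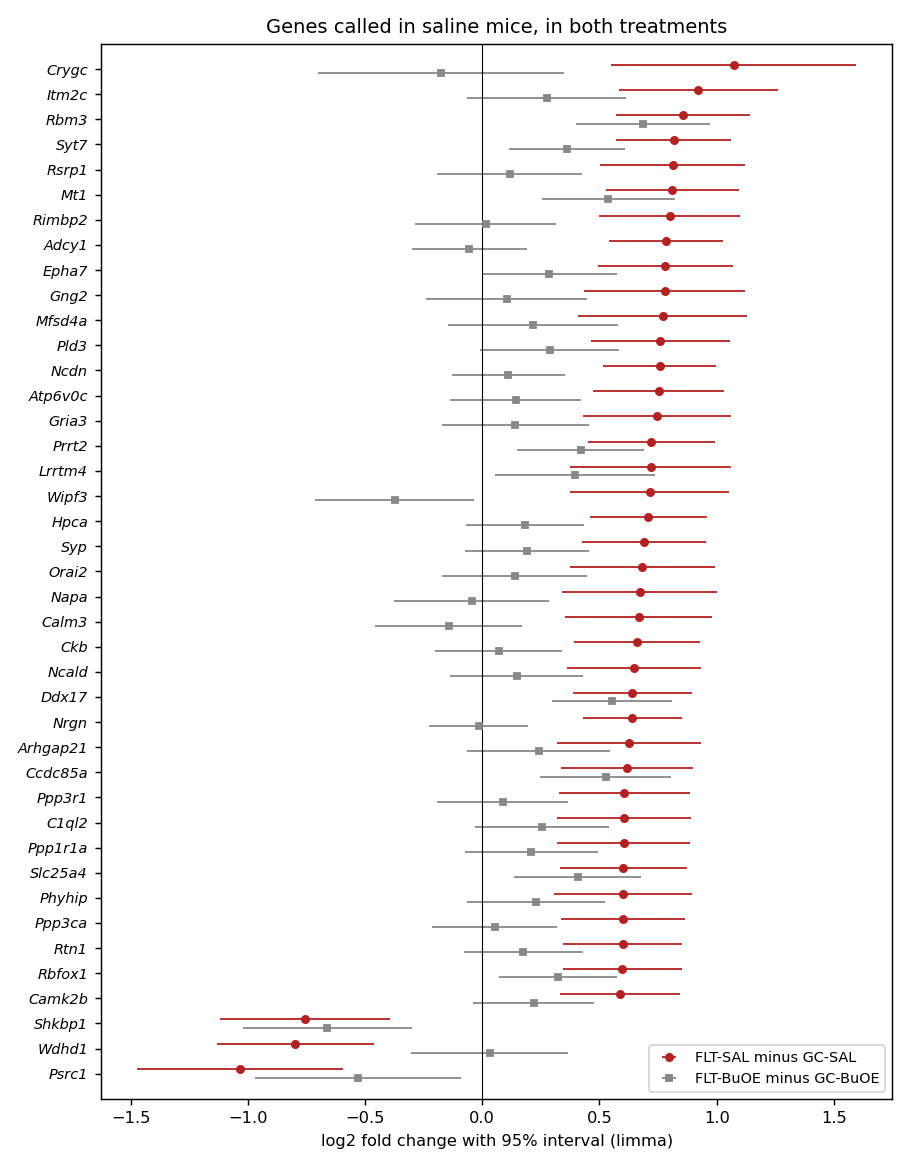
Flight difference (horizontal axis, log2 of value + 1 in DG, bars 95% intervals) of 41 of the 42 DEGs (vertical axis) in saline mice and in BuOE mice. Rbm3 and Ddx17 lie right of 0 in both treatments, while the BuOE points of Adcy1, Nrgn, Wipf3, Napa, Crygc and Calm3 lie left of it.

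The same mice and slides were sampled in the other regions. In CA, limma called 22 genes between FLT-SAL and GC-SAL (0.139%), and 7 genes that rose in DG rose there too (Itm2c, Ppp1r1a, Epha7, Wipf3, Mt1, Hpca and Prrt2). In FCT it called 8 (0.0507%), of which Mt1 was shared, and in CT 14 (0.0887%), of which Rbm3 was shared. The 39 genes that rose in DG had a median of 0.54 in CA, where the highest decile had 0.13, and 37 of them were positive. Their median was 0.23 in FCT and 0.23 in CT, with 33 and 31 positive, where the highest decile had -0.01 and 0.03. Of all genes, 53.5% were positive in CA, 55.8% in FCT and 51.3% in CT. In the highest decile these shares were 69.9%, 49.1% and 57.1%.

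No gene had a flight difference in DG that passed the test against another region. Limma called 0 genes for DG against CA (662 at an unadjusted p below 0.05, 4.19%), 0 against FCT (707, 4.48%) and 0 against CT (736, 4.66%). Syt7 had the smallest p of the DEGs against FCT, with a flight difference higher in DG by 0.98 ± 0.23 (adjusted p = 0.813). Against CT, the myelin gene Mobp had the smallest p, with a flight difference more positive in CT. Its difference of DG minus CT was -1.23 (adjusted p = 0.159). Arc was less negative in DG than in FCT by 1.53 (adjusted p = 0.813) and than in CT by 1.09 (adjusted p = 0.248). Tables of regions were normalised separately, so only the flight differences and not the levels were compared.

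**Figure D5:**
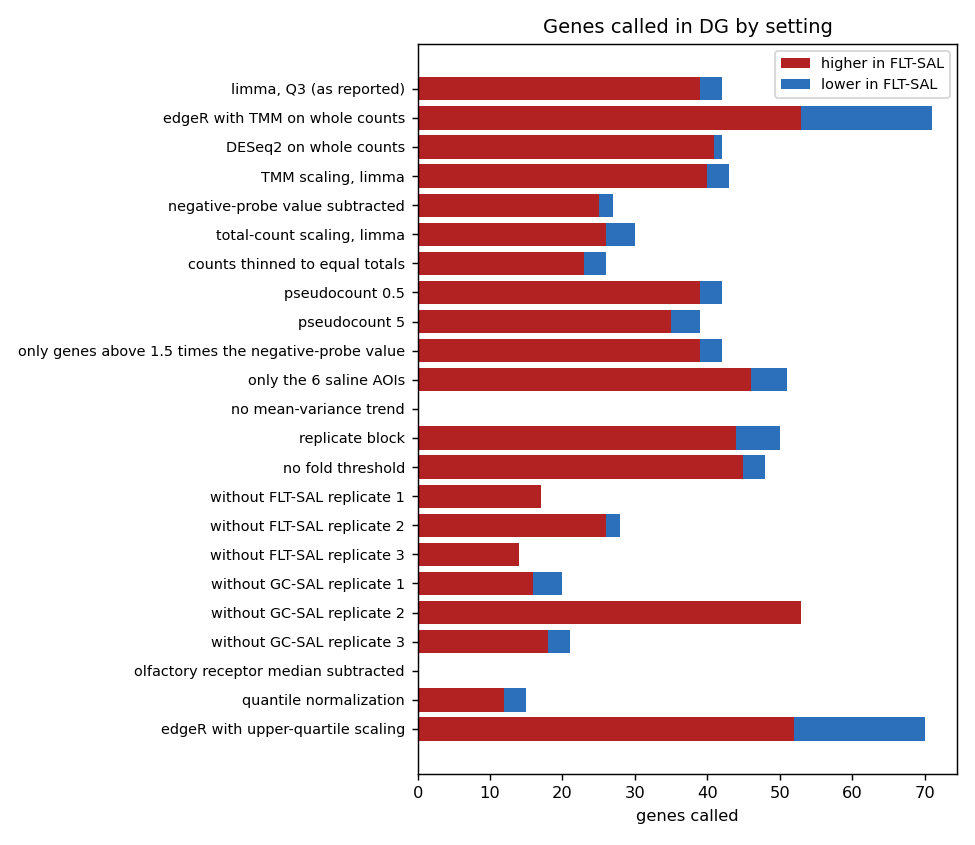
Number of DEGs between FLT-SAL and GC-SAL in DG (horizontal axis) under each alternative way of processing and with each mouse left out (vertical axis), split into higher and lower in FLT-SAL. Counts run from 0 without a mean-variance trend to 71 with edgeR, against 42 as reported.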

How the data were processed

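Tissue RNA was measured with the Mouse Whole Transcriptome Atlas probes of the GeoMx Digital Spatial Profiler. The authors made deduplicated counts for 20175 probes per AOI with the GeoMx NGS Pipeline (version 2.3.4, per the labels). The authors then divided the counts of each AOI by its upper quartile (Q3) in the instrument's software, and the deposited Q3-normalised signal of 15782 genes was used here. Deposited tables of the authors' own comparisons (fold changes and p-values) were not used.

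Signals were tested as log2(signal + 1) with limma 3.58.1 (R 4.3.3), with a mean-variance trend, 4 groups of 3 mice in 1 fit, moderated variances and Benjamini-Hochberg adjustment over 15782 genes. This moderated test takes the place of the per-gene test of the study. A gene was called at an adjusted p below 0.05 and at least 1.5-fold on this scale, which understates changes of low genes. Differences between regions were tested on within-mouse log2 differences. Whole counts per gene, recovered from the steps of the signal (99.98% of values whole within 0.02), entered edgeR 4.0.16 and DESeq2 1.42.0 for 15779 genes. Total counts were 496732 to 1372780 per AOI. The number of mice, 3 per group, also limits the precision. The scripts were tested on simulated data.

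Named genes were all called genes, the most abundant members of 11 cell type, 16 function and 7 family lists, the 5 largest uncalled differences without overlap, and the 5 smallest p of each test between treatments or regions. A few named genes, 1 of them called, are not reported here. Members and lists were chosen with earlier results of these data known. Alternatives covered scaling, background, pseudocount, filter, test, replicate block and leaving out each mouse. Coordinates are from GENCODE (GRCm38) by gene symbol, promoters from RefSeq.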

Additional observations from a re-analysis of the deposited data

How the results depend on the processing

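The 42 DEGs became 71 with edgeR and TMM scaling (74.6% higher in FLT-SAL, against 92.9%; 41 shared), 70 with edgeR and upper-quartile scaling (74.3% higher), 27 with the negative-probe value subtracted, 26 with counts thinned to equal totals (19 shared), 15 after quantile normalisation (80% higher), 0 without a mean-variance trend and 0 with the olfactory and vomeronasal receptor median subtracted and a pseudocount of 5. These last 2 had 967 and 1132 genes at an unadjusted p below 0.05. Upper-quartile, quantile and receptor-median scaling were chosen after seeing the data. The count was 42 with DESeq2 (41 higher and 1 lower), 43 with TMM scaling in limma, 30 with total-count scaling, 42 with a pseudocount of 0.5, 39 with a pseudocount of 5, 42 with a filter on low values, 51 with the 6 saline AOIs alone and 48 without the fold limit. With 1 mouse left out it ran from 14 (FLT-SAL mouse 3 left out) to 53 (GC-SAL mouse 2 left out). It was 17 and 28 on dropping the first and the second FLT-SAL mouse, and 20 and 21 on dropping the first and the third GC-SAL mouse. No DEG was called under all alternatives, and no called value changed sign. The causes of these shifts were not tested.

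The difference between saline and BuOE mice was called for 0 genes as reported, 7 with edgeR (added after seeing the data) and 0 to 5 with 1 mouse left out (5 when GC-SAL mouse 2 was dropped, 1 when GC-SAL mouse 1 was). The difference between DG and CT gave 3 genes with a pseudocount of 5 and 0 otherwise. The study compared mice of different groups unpaired, and the main fit took same-numbered mice as unrelated. Deviations from the group mean of same-numbered FLT-SAL and GC-SAL mice had correlations of 0.03, -0.01 and 0.01. These values cannot show that such mice shared nothing but a number. With the replicate block the DEGs were 50 (44 higher and 6 lower) and the saline and BuOE difference gave 5 genes (Klf9, Adcy1, Wipf3, Nrgn and Mmp17).

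The medians of clock, heat shock, meninges, microglia, progenitor, oligodendrocyte precursor, solute carrier and vessel lists changed sign under some setting. The vesicle list held 0 to 6 calls over the settings that kept all mice, with 2 after quantile normalisation, and the calcium sensor list held 0 after quantile normalisation and 3 with thinned counts. With 3 mice a group on 1 slide each, flight, slide and depth cannot be told apart, and low genes lie close to background.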

Other observations

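Several of the 30 genes that edgeR called and limma did not rested on 1 AOI. The 4 named here were chosen after their values were seen. Pik3r4, a subunit of the lipid kinase complex of autophagy, read 16.3, 21.8 and 19.3 in FLT-SAL and 16.6, 3437 and 27.0 in GC-SAL, the high value being that of mouse 2. Khnyn, a partner of the zinc finger antiviral protein, read 29.6, 22.9 and 19.3 against 27.6, 199 and 36.0, again with mouse 2 high. Taar3, a trace amine receptor of the nose, read 341, 32.2 and 29.3 against 59.3, 46.5 and 39.0. Ptprr, a receptor tyrosine phosphatase, read 25.9, 18.7 and 278 against 31.7, 27.0 and 18.0.

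The genes with the smallest p for a flight difference of DG against CA were Wfs1 (-1.05), Usp2 (1.03), Tpd52l1 (-1.14), Bsph1 (-1.62) and Kcnq3 (-1.20), each with an adjusted p of 0.999 in limma. Against FCT, beside Syt7 and Arc, they were Rhbdl2 (-1.51), Scg2 (1.43) and Etv1 (-1.24), each with an adjusted p of 0.813. Against CT, beside the genes above, Plekhg3 had -1.20 (adjusted p = 0.615) and Egr3 had 1.13 (adjusted p = 0.717). Scg2 encodes a secretory granule protein and Egr3 an activity-induced transcription factor. For both genes the flight difference was positive in DG (0.45 and 0.23) and negative in the other region (-0.98 and -0.90).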
